A study of Mus musculus with 10 samples.

Results

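Small nucleolar RNAs (snoRNAs) and small Cajal body RNAs (scaRNAs) were measured in the jejunum of mice that had lost Pcyt1a from the gut epithelium. Members were taken as genes named Snord (C/D box snoRNAs), Snora (H/ACA box snoRNAs) or Scarna (scaRNAs) followed by a number, on probe sets annotated with exactly 1 gene symbol. There were 78 of them among 22180 genes tested: 47 C/D box snoRNAs, 26 H/ACA box snoRNAs and 5 scaRNAs. Each group held 5 arrays, with 1 array per sample. Pcyt1a encodes the enzyme that limits phosphatidylcholine synthesis by the CDP-choline route. The knockouts, numbered 1 to 5, were Pcyt1aLoxP/LoxP;VilCreERT2, with a tamoxifen-inducible Cre driven by the promoter of villin, which is active in gut epithelium. The controls, numbered 6 to 10, were Pcyt1aLoxP/LoxP without Cre. All were female, aged 10 to 12 weeks, and all received tamoxifen for 5 days, then 4 days of high fat diet, then an overnight fast. The frozen piece was 3 cm of whole intestinal wall, so the other cells of the wall kept the gene. For the controls, titles and genotype disagree with a source label that, as for the knockouts, tells of intestine lacking phosphatidylcholine synthesis. A meal after the fast is mentioned for the series, while the labels of the samples give the fasted state alone.

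Most vertebrate snoRNAs are cut from introns of other genes after splicing. C/D box snoRNAs guide methylation of the ribose in ribosomal RNA and H/ACA box snoRNAs guide the change of uridine to pseudouridine, each in a particle with its own set of core proteins. ScaRNAs carry the same box motifs, sometimes both, and guide these changes on the small nuclear RNAs of the spliceosome in Cajal bodies, which are compartments of the nucleus. A few snoRNAs, among them Snord13 and Snord118, have genes of their own and take part in ribosomal RNA modification or processing in other ways.

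Sequences of the members themselves were not used here, except where a member shares its bases with a microRNA hairpin. These 2 cases are shown because an array probe to such a stretch reads both annotations. Both come from RefSeq on GRCm38.p6. Snora19 lies on the minus strand at chr19:60774330-60774385, within the Mir3084-2 hairpin, and its capitals mark the ACA box, 3 bases from the end. Snora34 shares 73 bases, in capitals, with the Mir1291 hairpin on the minus strand at chr15:98519762-98519878.
Snora19: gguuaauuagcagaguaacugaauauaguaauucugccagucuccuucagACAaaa
Mir1291: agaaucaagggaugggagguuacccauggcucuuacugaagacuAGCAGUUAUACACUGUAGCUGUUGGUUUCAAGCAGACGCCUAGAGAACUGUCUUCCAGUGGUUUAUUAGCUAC

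The median log2 intensity over all genes lay between 5.77 and 5.89 on every array. Pcyt1a fell to 7.46 ± 0.25 in knockouts from 9.39 ± 0.17 in the controls (SD, n = 5 per group), with no overlap. The enterocyte markers Vil1 and Fabp2 had mean log2 intensities of 12.33 and 13.43. Markers of other cell types varied among arrays of the same group, and some also differed between groups. At an unadjusted p under 0.05, 6 of 10 endothelial and 4 of 10 macrophage markers were higher and 0 lower in knockouts. The shares over all genes were 8.29% and 5.56%. Their medians were 0.57 and 0.32, and no setting adjusted for these markers. The Paneth marker score, centred over the 10 arrays, ran from -1.58 to 1.08 in knockouts and from -1.63 to 0.64 in controls, with knockout 2 and control 6 at the low ends. The smooth muscle score ran from -0.65 to 0.79 in knockouts and from -1.07 to 2.78 in controls. The endothelial score ran from -0.06 to 0.63 in knockouts and from -0.86 to -0.01 in controls. The part of these differences in the results below was not tested, except where a value without such arrays is given. In RNA of a whole piece of gut, fewer cells of a type and less RNA per cell cannot be told apart.

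Of the 78 members, 1 passed the threshold: Scarna10 fell in the knockouts. Over all genes 0.0271% were called at an adjusted p under 0.05 (limma, Benjamini-Hochberg over 22180 genes), 0.0225% lower and 0.00451% higher. At an unadjusted p under 0.05, 5 members were lower and 8 higher, which is 6.41% and 10.3% of them, beside 5.56% and 8.29% of all genes. Both shares were near the background. The median log2 fold change, knockout minus control, was 0.002 over the members and -0.014 over all genes, and 39 of 78 members lay below 0. The knockout and control values of 2 members, Scarna10 and Snord89, did not overlap, in both cases with the knockouts below. Over all genes 2.6% did not overlap, 0.965% with the knockouts below and 1.64% with the knockouts above.

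**Figure D1:**
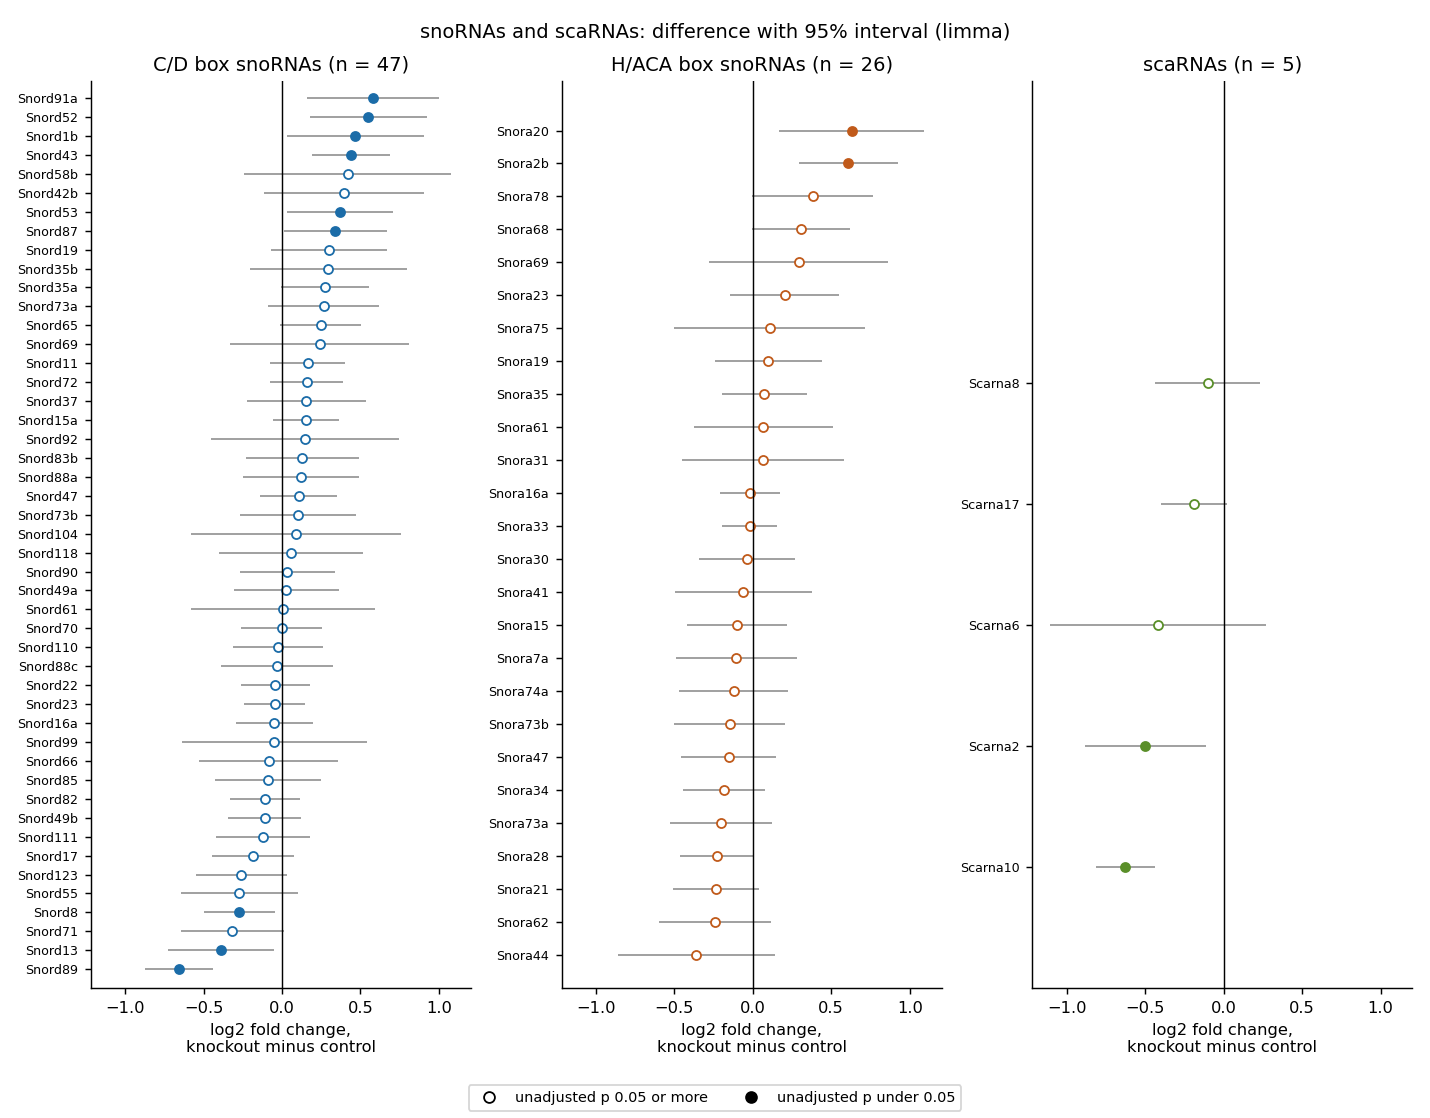
Log2 fold change (knockout minus control, x axis) of each of the 78 members with its 95% interval from limma, in 3 panels by class; filled points have an unadjusted p under 0.05. The 5 scaRNAs all lie below 0, and Scarna10 and Snord89 are the lowest of their classes.

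The classes differed in their medians, which are given as a description with no test. The median was 0.09 for C/D box snoRNAs, with 19 of 47 below 0, and -0.03 for H/ACA box snoRNAs, with 15 of 26 below 0. It was -0.42 for the scaRNAs, all 5 of which lay below 0. With 5 members this median is the value of 1 gene, Scarna6 (SE 0.32). At an unadjusted p under 0.05 the C/D box class had 3 lower and 6 higher members, the H/ACA box class 0 lower and 2 higher, and the scaRNAs 2 lower and 0 higher. The scaRNA median was -0.23 without knockout 2 and -0.19 without the 3 arrays lowest in Paneth markers, and the C/D box median was -0.02 without control 10.

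Scarna10, a scaRNA that carries both kinds of box, gave the smallest p of the members. In log2 intensity, knockouts 1 to 5 gave 9.38, 9.26, 9.39, 9.59 and 9.55, whereas controls 6 to 10 gave 10.16, 10.10, 9.96, 10.03 and 10.05. The highest knockout lay below the lowest control. The knockout mean was 9.43 ± 0.14 (SD, n = 5) beside a control mean of 10.06 ± 0.08 (SD, n = 5), which puts the knockouts at 64.8% of the control intensity. It fell by 0.63 on the log2 scale (SE 0.09, limma adjusted p = 0.0424; two-sided exact permutation p = 0.00794, the smallest that 5 against 5 allows). The size of the difference stayed between -0.67 and -0.58 over 21 other settings, while the adjusted p ran from 0.0188 to 0.338 and was under the threshold in 6 of them. With any 1 array left out other than knockout 2, it missed the threshold and 0 members were called.

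Snord89, a C/D box snoRNA, had a difference of the same size and missed the threshold. Its values were 7.80, 7.94, 7.89, 8.08 and 8.00 on the knockout arrays, whereas they were 8.82, 8.50, 8.59, 8.70 and 8.38 on the control arrays. Here too every knockout lay below every control. Its log2 fold change was -0.66 (SE 0.10, limma adjusted p = 0.0688; two-sided exact permutation p = 0.00794), or 63.5% of the control intensity. Over 21 other settings the value lay between -0.71 and -0.58 and the adjusted p between 0.0205 and 0.338, under the threshold in 4. RefSeq places Snord89 in no annotated gene, between Cnot11, a subunit of the CCR4-NOT deadenylase, at 0.06 (SE 0.09), and the ubiquitin ligase gene Rnf149 at 0.22 (SE 0.13).

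The other scaRNAs were lower on average, with overlapping groups. Scarna2 read 8.53, 8.00, 8.96, 8.96 and 8.86 in knockouts and 9.09, 9.17, 8.90, 9.36 and 9.28 in controls. Only control 8 lay within the knockout range, and the log2 fold change was -0.50 (SE 0.18, limma adjusted p = 0.242). Without knockout 2, Scarna2 was at -0.33 (SE 0.12). Scarna17 was at -0.19 (SE 0.10), and at -0.11 without knockout 2. Scarna6 spread widely in both groups, from 7.43 to 9.01 in knockouts and from 7.93 to 9.13 in controls, and was at -0.42 (SE 0.32), or -0.23 without knockout 2. Scarna8 was at -0.10 (SE 0.15), and at 0.04 without knockout 2, where it read 4.63. Knockout 2 was the lowest of the 10 arrays for all 5 scaRNAs.

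**Figure D2:**
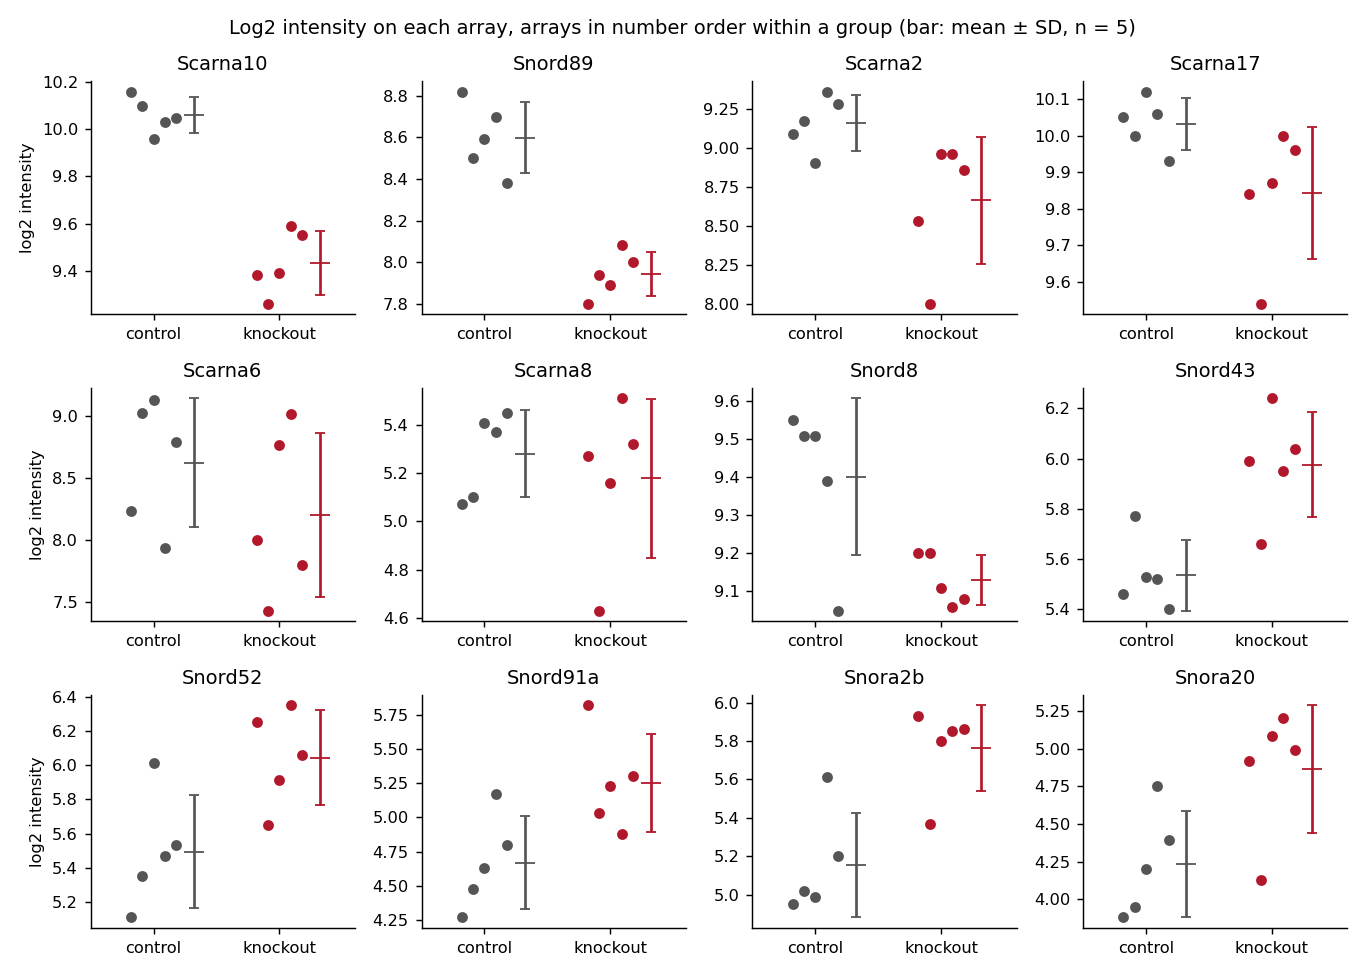
Log2 intensity (y axis, a separate range in each panel) of 12 members on every array, controls left and knockouts right, with the mean ± SD of n = 5 at the side of each group. Scarna10 and Snord89 show no overlap between the groups, and the other 10 panels do.

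Among the other C/D box snoRNAs, none was called, and those of smallest p lay on both sides of 0. Snord8 was between 9.06 and 9.20 in knockouts, and 4 controls read 9.39 to 9.55, while control 10 read 9.05. Its log2 fold change was -0.27 (SE 0.10, limma adjusted p = 0.270). Snord13, which helps to guide acetylation of the small ribosomal subunit RNA, was at -0.39 (SE 0.16). In the other direction Snord43 read 5.99, 5.66, 6.24, 5.95 and 6.04 in knockouts and 5.46, 5.77, 5.53, 5.52 and 5.40 in controls. Only knockout 2 and control 7 overlapped, and the log2 fold change was 0.44 (SE 0.11, limma adjusted p = 0.147). Snord52 was at 0.55 (SE 0.17) and Snord91a at 0.58 (SE 0.19). Snord1b, at 0.47 (SE 0.20), read 8.11 on control 10 and 8.84 to 9.29 on the other controls.

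The 5 H/ACA box snoRNAs of smallest p were Snora2b, Snora20, Snora78, Snora28 and Snora68, and none was called. Snora2b read 5.93, 5.37, 5.80, 5.85 and 5.86 in knockouts and 4.95, 5.02, 4.99, 5.61 and 5.20 in controls. Knockout 2 and control 9 were the arrays that overlapped, and the log2 fold change was 0.61 (SE 0.15, limma adjusted p = 0.130). Snora20 read 4.92, 4.13, 5.08, 5.20 and 4.99 in knockouts against 3.88, 3.95, 4.20, 4.75 and 4.39 in controls, again with knockout 2 inside the control range. It was at 0.63 (SE 0.21, limma adjusted p = 0.217). Snora78 was at 0.38 (SE 0.18), Snora68 at 0.31 (SE 0.14) and Snora28 at -0.23 (SE 0.11). Without knockout 2, 6 of 78 members were called, namely Scarna10, Snord89, Snord19, Snord43, Snora2b and Snora20. So were 452 of 22180 genes over all.

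Other members with known special roles had 95% intervals that included 0. Snord22, Snora73a and Snora73b, which take part in cutting the ribosomal precursor rather than in modifying it, were at -0.04 (SE 0.10), -0.20 (SE 0.15) and -0.15 (SE 0.16). The precision differed widely between members. Snord23 was at -0.05 with a 95% interval from -0.24 to 0.15, and Snora16a at -0.02 with an interval from -0.21 to 0.18. Snora33 was at -0.02 on the probe set kept, with an interval from -0.19 to 0.15, but at -0.40 on its other probe set. Snord58b was at 0.42 with an interval from -0.24 to 1.08, and Snord99 at -0.05 with one from -0.64 to 0.54, so these data bound the difference of such members only loosely.

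Single arrays stood apart by class, a pattern noticed after the values were seen. Control 10 was the lowest of the 10 arrays for 29 of 47 C/D box snoRNAs, and knockout 2 for 16 of 26 H/ACA box snoRNAs. The median deviation of the C/D box class from the members' own means was -0.36 on control 10, while the other arrays ran from -0.19 to 0.17. That of the H/ACA box class was -0.44 on knockout 2, while the other arrays ran from -0.11 to 0.18. Without control 10, 11 members were lower and 5 higher at an unadjusted p under 0.05 (14.1% and 6.41%). The shares of all genes in the same fit were 5.05% and 7.42%. Without knockout 2, 4 members were lower and 17 higher (5.13% and 21.8%), beside 6.28% and 9.65% of all genes. The direction of the shift thus depended on which array was left out.

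**Figure D3:**
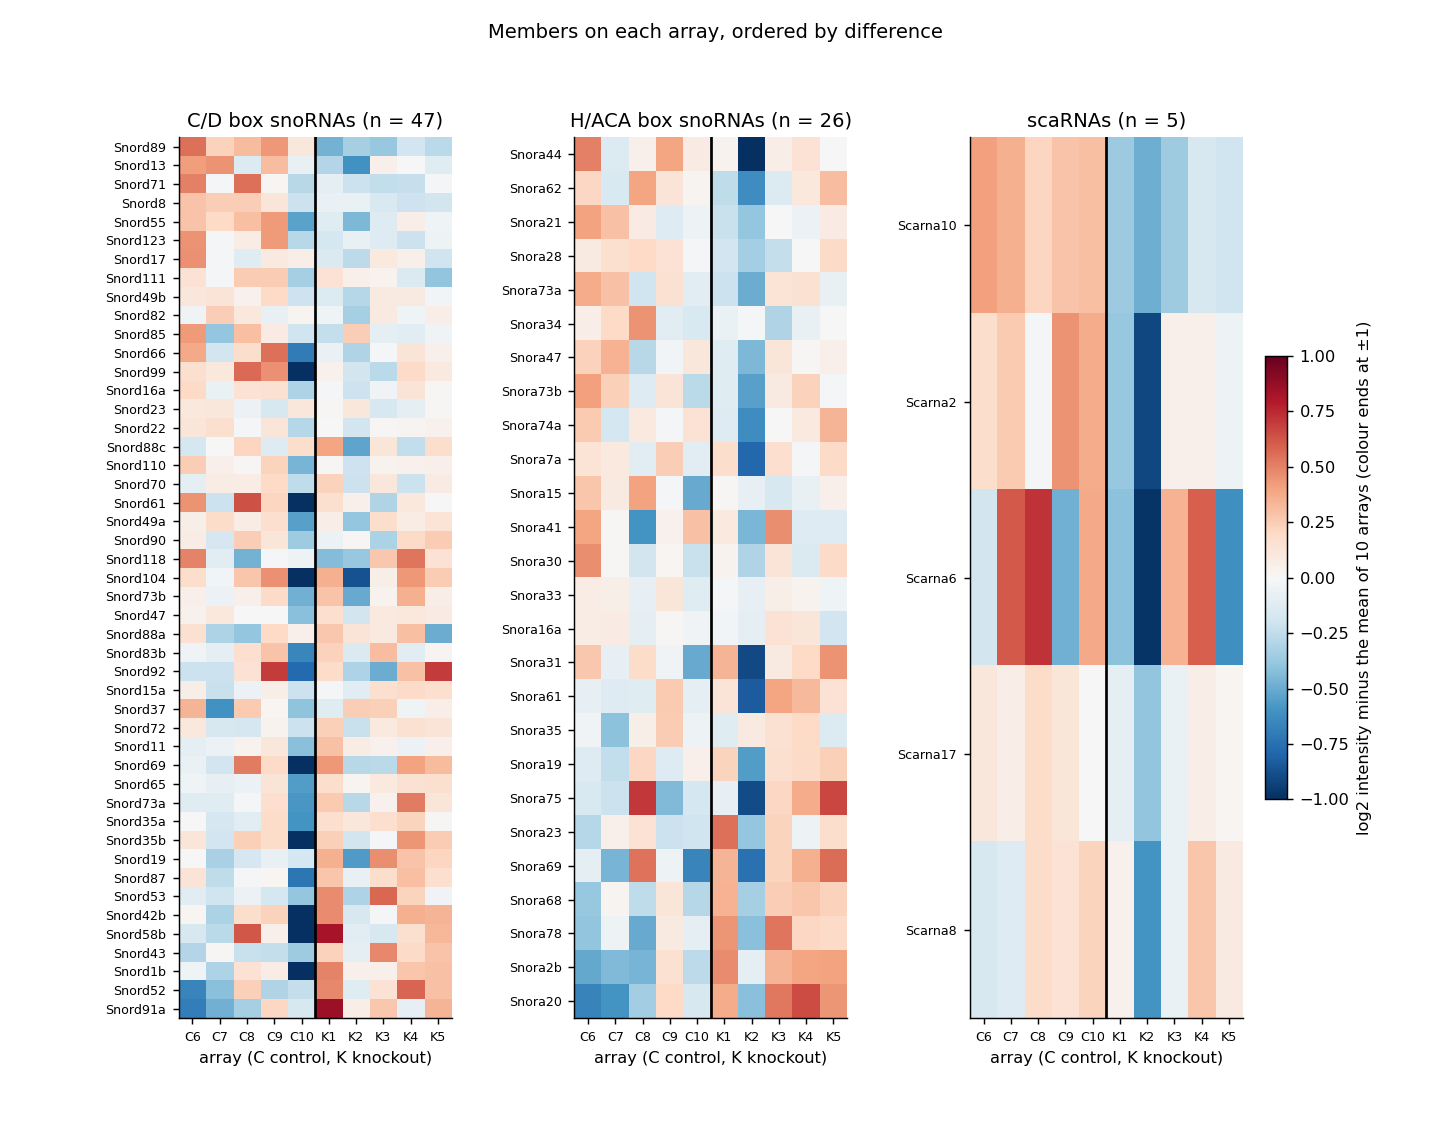
Log2 intensity of each member minus its mean over the 10 arrays (colour, ends at ±1), with controls left of the line and knockouts right, members ordered by their difference. Control 10 is low for many C/D box snoRNAs and knockout 2 for many H/ACA box snoRNAs and for all 5 scaRNAs.

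The members' counts were also set out by intensity, with no test of a trend. Of 14 members with a mean log2 intensity under 6, 0 were lower and 5 higher at an unadjusted p under 0.05, beside 6.54% and 2.87% of all genes in that range. Of 19 members from 6 to 8, 0 were lower and 1 higher, beside 4.57% and 15.4% of genes. Of 45 members at 8 or more, 5 were lower and 2 higher, beside 4.25% and 13.3% of genes. Near the low end a probe set may read background, and no detection values were used here.

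RefSeq placed 74 members inside another gene and 4 in none. The 4 outside a gene were Snord89, Scarna2, Snord13 and Snord118. Their median was -0.44, and 3 of them (75%) were lower at an unadjusted p under 0.05, beside 5.56% of all genes. The exception was Snord118, the U8 snoRNA needed for processing of the large subunit RNAs, at 0.06 (SE 0.21). The 74 inside a gene had a median of 0.016, with 2 lower and 8 higher (2.70% and 10.8%), beside 5.56% and 8.29% of all genes. This split was made with the members' values known.

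For 63 members the surrounding gene had a measured probe set, 49 genes in all. These genes tended to be higher in the knockouts: 41 of 49 were above 0, with a median of 0.26. At an unadjusted p under 0.05, 20 were higher and 1 lower (40.8% and 2.04%), although 0 were called. Over all genes the shares were 8.29% and 5.56%, and at a mean log2 intensity of 8 or more they were 13.3% and 4.25%. A member lay below its surrounding gene in 48 of 63 pairs, with a median difference of -0.30 in log2 fold change. This was so in 28 of 36 C/D box pairs, 17 of 24 H/ACA box pairs and 3 of 3 scaRNA pairs. In 28 pairs the member was below 0 and the gene above 0, and in 27 both were above. Across the 63 pairs, which share arrays and in part genes, Pearson's r was 0.16.

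**Figure D4:**
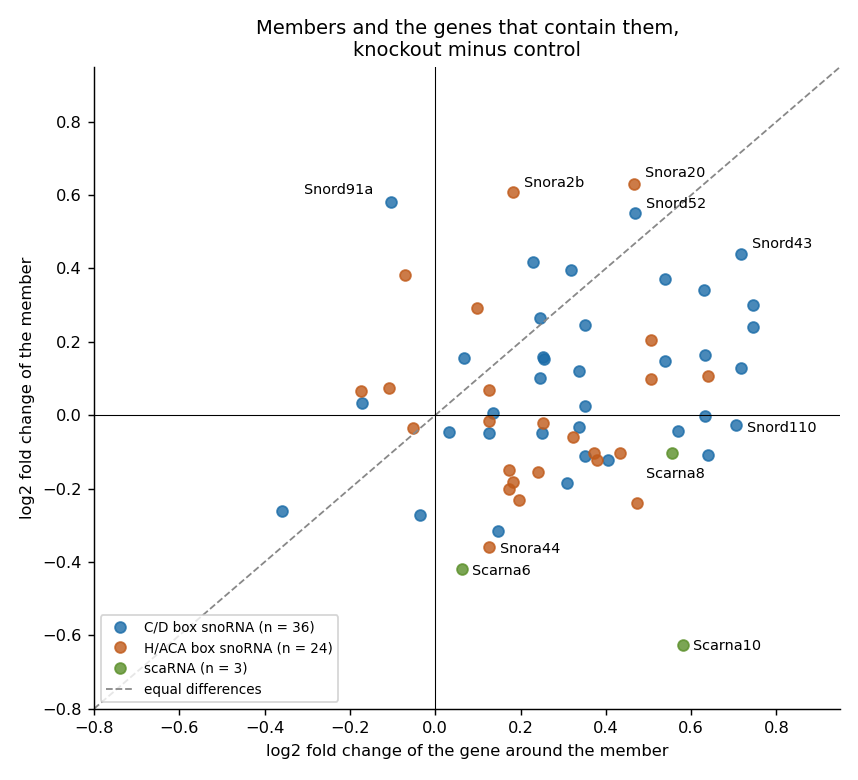
Log2 fold change of each of 63 members (y axis) against that of the gene around it (x axis), knockout minus control, coloured by class; the dashed line marks equal differences. Most points lie below the line, and Scarna10 lies farthest below it.

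Scarna10 lies in Ncapd2, a condensin subunit that compacts chromosomes in mitosis, and the pair showed the largest gap. Ncapd2 read 7.78, 7.12, 7.93, 7.88 and 7.54 in knockouts and 6.49, 7.39, 6.93, 7.21 and 7.33 in controls. Its groups overlapped and its log2 fold change was 0.58 (SE 0.19, limma adjusted p = 0.213), against -0.63 for the scaRNA. The promoter of Ncapd2 is shown because it is that of the gene around the 1 called member. It covers chr6:125191537-125191836 on the minus strand of GRCm38.p6 (RefSeq), 250 bases before to 50 after the start. Capitals mark ATTGG, the reverse complement of CCAAT, which occurs 3 times, and TTTGAA. On either strand CCAAT occurs in 37.4% of 32851 such windows, TTTGAA in 17.9% and both in 6.95%.
Ncapd2: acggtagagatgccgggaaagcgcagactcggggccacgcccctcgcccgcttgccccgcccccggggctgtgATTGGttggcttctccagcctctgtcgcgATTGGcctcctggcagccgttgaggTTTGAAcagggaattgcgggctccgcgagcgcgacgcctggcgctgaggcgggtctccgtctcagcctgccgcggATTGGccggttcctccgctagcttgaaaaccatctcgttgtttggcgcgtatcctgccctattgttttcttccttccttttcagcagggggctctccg

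Among 11 genes that hold several members, those in Kansl2 lay farthest apart. Snora2b (0.61, SE 0.15) and Snora34 (-0.18, SE 0.12) both lie in Kansl2, a subunit of a histone acetyltransferase complex, which was at 0.18 (SE 0.11). Snhg12, a noncoding gene at 0.13, holds Snora44 (-0.36, SE 0.23), Snora61 (0.07, SE 0.20), Snora16a (-0.02, SE 0.09) and Snord99 (-0.05, SE 0.27). Without knockout 2, Snora44 was at -0.12 (SE 0.13) and Snora61 at 0.28 (SE 0.11), and without control 10, Snord99 was at -0.35 (SE 0.13). Rpl3, a ribosomal protein gene whose knockout values all lay above the controls (0.72, SE 0.19, limma adjusted p = 0.148), holds Snord43 (0.44, SE 0.11) and Snord83b (0.13, SE 0.17). With the mean of its 3 probe sets Rpl3 was at 0.23 (SE 0.09), and whether the probe set kept lies at this locus was not checked. In some other genes the members lay closer to each other. Snhg3, a noncoding gene at 0.17, holds Snora73a (-0.20, SE 0.15) and Snora73b (-0.15, SE 0.16). Among genes for nucleolar proteins, Gnl3 was at 0.75 with Snord19 at 0.30 (SE 0.17) and Snord69 at 0.24 (SE 0.26). Ncl was at 0.64 with Snord82 at -0.11 (SE 0.10) and Snora75 at 0.11 (SE 0.28). These gaps between members of 1 gene are given as a description.

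Genes that hold snoRNAs often start transcription at a C within a run of pyrimidines. Such a start, a C followed by at least 5 C or T from 3 bases before to 4 after the annotated start, was found in 9.66% of 27025 genes. It was found in 10 of 50 genes (20%) that contain a member and have a promoter in the RefSeq table, whether or not they had a measured probe set. Windows of 40 bases around 4 of these starts, picked by hand, are shown (RefSeq, GRCm38.p6). Capitals mark such a C and the C or T bases after it, while pyrimidines before it stay in lower case, as in Ipo7. They are chr17:34952447-34952486 (minus, around Snord52), chr7:110018300-110018339 (plus, Snora23), chr4:132308663-132308702 (plus, the 4 members in Snhg12) and chr13:95323590-95323629 (plus, Snora47).
1110038B12Rik: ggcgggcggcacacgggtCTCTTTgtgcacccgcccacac
Ipo7: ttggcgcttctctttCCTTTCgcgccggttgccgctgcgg
Snhg12: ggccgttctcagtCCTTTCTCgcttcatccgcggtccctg
Zbed3: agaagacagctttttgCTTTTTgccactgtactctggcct

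The proteins that bind and build these particles were measured for 46 of 55 listed genes. None was called, and the median was 0.28. At an unadjusted p under 0.05, 24 were higher (52.2%) and 0 lower, beside 8.29% and 5.56% of all genes. Among all genes with a mean log2 intensity from 6 to 8, the shares were 15.4% and 4.57%. Of the C/D box core proteins, Nop56 was at 0.71 (SE 0.25), Nop58 at 0.63 (SE 0.22) and Snu13 at 0.50 (SE 0.16). With the mean of its 3 probe sets Nop56 was at 0.12 (SE 0.18). Of the H/ACA box core, the pseudouridine synthase Dkc1 was at 0.73 (SE 0.23), Gar1 at 0.60 (SE 0.15), Nhp2 at 0.56 (SE 0.17) and Nop10 at 0.38 (SE 0.15). Adjusted p-values of these 7 genes ran from 0.147 to 0.281 (limma). The core scores were lowest on control 6, at -0.88 and -0.66, and among knockouts on knockout 2, at -0.37 and -0.28, the same arrays that were lowest in Paneth markers.

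The assembly factors had a median of 0.26, with 6 of 13 higher at an unadjusted p under 0.05, beside 8.29% of all genes. Ruvbl2, an ATPase of the assembly machinery, was at 0.53 and Nolc1, a chaperone of these particles, at 0.52. The list of Cajal body and scaRNA proteins had a median of 0.17, with 8 of 17 higher at that threshold. In the same list 5 genes lay below 0, the lowest at -0.31. In it Ddx20, a helicase of the SMN complex, was at 0.61, coilin (Coil), the scaffold of Cajal bodies, at 0.28, and Wrap53, which carries scaRNAs to them, at 0.17. Among 9 genes that trim small RNA ends, 3 were higher at that threshold and 2 lay below 0. The exosome nuclease Dis3 was at 0.59 and the exosome helicase Mtrex at 0.30.

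Other short RNA genes were read on the same arrays. The 483 microRNA genes had a median of -0.09, with 335 below 0, and 43 were lower and 6 higher at an unadjusted p under 0.05, or 8.90% and 1.24%. The microRNA genes had a median log2 intensity of 4.42, and among all genes under 6 the shares were 6.54% and 2.87%, with 62.3% below 0. Of 5 spliceosomal and other U RNAs, Rnu11 of the minor spliceosome was at -0.44 (SE 0.14, limma adjusted p = 0.199) with every knockout below every control, and Rnu12 was at -0.03 (SE 0.09). Of 8 other named small RNAs, 6 lay below 0, with the ribonuclease P RNA Rpph1 at -0.77 (SE 0.24) and the vault RNA Vaultrc5 at -0.31 (SE 0.09). Both groups follow gene symbols, so they include Rnu3a, the U3 snoRNA (0.23, SE 0.225), and Terc, which has an H/ACA box (0.19, SE 0.15). None of these was called.

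**Figure D5:**
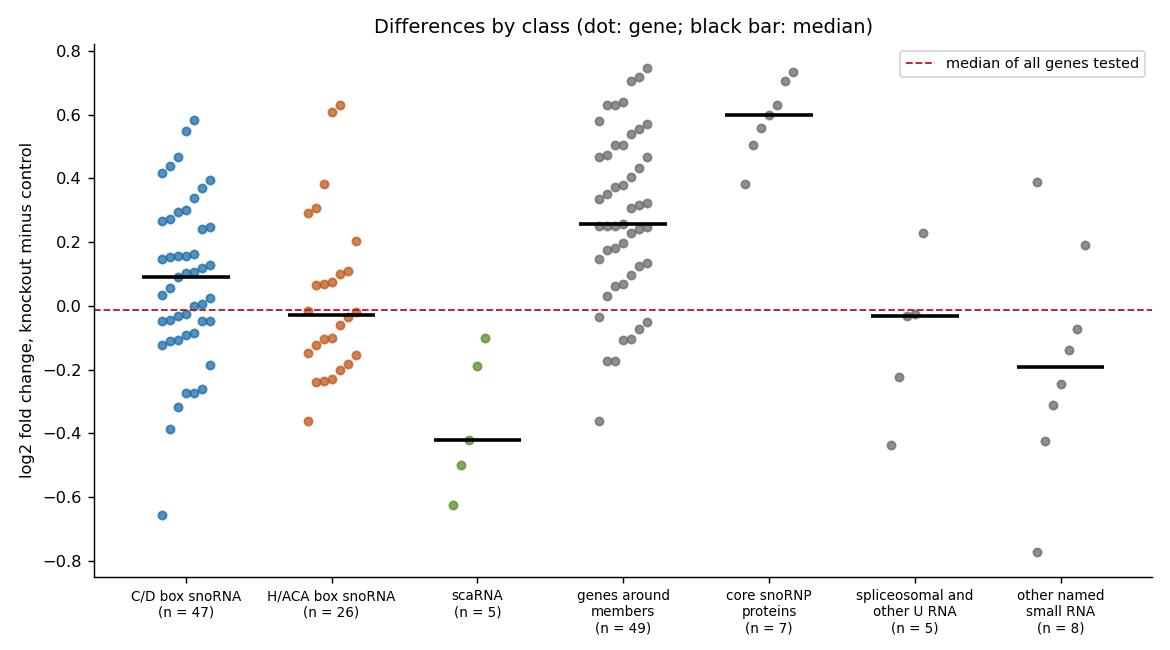
Log2 fold change (knockout minus control, y axis) of the members by class beside the genes around them, core snoRNP proteins and other short RNAs; dots are genes, black bars medians, and the dashed line is the median of all genes. The scaRNA median lies at -0.42, the value of Scarna6, while surrounding genes and core proteins lie mostly above 0.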

How the data were processed

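Per the submitters' processing notes, the authors used Affymetrix Expression Console, version 1.4.1.46, and RMA. The deposited intensities were linear, from 1.88 to 15500.2, and log2 was taken here, where the plan had assumed log2 values. Trizol extracts were cleaned on RNeasy columns, and 400 ng was labelled, per the labels' protocols. The members' annotated lengths ran from 48 to 248 bases, with a median of 80.5. How much RNA of such lengths the columns kept in each sample was not tested. The build behind the probe sets is not given in the sources used here. Of 34472 probe sets, 23521 had 1 gene symbol, 1814 several and 9137 none, and only the first kind was used. The probe set of highest mean was kept per gene, which gave 22180 genes. The 78 members came from 81 probe sets, and 46 probe sets with several symbols that include a snoRNA were left out. Of the 3 members with several probe sets, Snora33 differed between them, at -0.02 for the one kept and -0.40 for the other. All 78 matched RefSeq (GRCm38.p6).

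The comparison used lmFit and eBayes of limma 3.58.1 under R 4.3.3 (two-sided, Benjamini-Hochberg over all genes) without covariates or an intensity filter, and the code was tested on simulated data. Exact permutation tests used all 252 splits. Whether each sample is a different mouse is not in the labels, so the p-values speak only of spread among these samples, which may be technical. Precision is limited by the number of arrays. Surrounding genes were found by position alone, since the RefSeq table used gives no strand, although the plan had asked for the same strand. The smallest measured gene was taken and microRNA genes were passed over. Its value was then matched by symbol. Whether the probe set kept lies at the member's locus, rather than at a copy elsewhere, was not checked. The members and lists were chosen with earlier results of these data known. Named were Scarna10, Snord89, any called or non-overlapping member, the 5 of smallest p per class, the genes around them, core proteins and up to 4 genes of smallest p in each other protein list. Other genes were named after their values were seen. Alternatives were median centring, quantile normalization, filters at a mean log2 of 5 and 6, array weights, an intensity trend, probe set means, Paneth and smooth muscle covariates, and leaving out arrays.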

Additional observations from a re-analysis of the deposited data

Results flagged for a closer look

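In 68 groups of 5 arrays (34 named genes), 7 had 1 array far from the other 4, and chance alone gives about 1 in 20. Knockout 2 was the low array for Snora2b (5.37, the others 5.80 to 5.93), Snora20 (4.13, the others 4.92 to 5.20) and Snora68 (6.69, the others 7.25 to 7.37). It was also low for 1110038B12Rik, the gene around Snord52 (8.01, the others 8.66 to 8.86), and for the H/ACA core protein gene Gar1 (6.77, the others 7.42 to 7.66). Control 6 was the low array for Nop56 (7.60, the others 8.29 to 8.52) and Dkc1 (5.98, the others 6.61 to 6.82). These arrays had the lowest Paneth marker scores of their groups, at -1.58 and -1.63, and the part of this in the values was not tested.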

How the results depend on the processing

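No paired analysis was possible because the knockouts are numbered 1 to 5 and the controls 6 to 10. Scarna10 and Snord89 lay below 0 in each of the 21 other settings run. The count of called members (1, a scaRNA) was 0 with median centring, quantile normalization, array weights, the smooth muscle covariate, or without the 3 arrays highest in smooth muscle or lowest in Paneth markers, both removals chosen after seeing the data. It was 2, with 1 C/D box snoRNA, with a mean log2 of at least 6, an intensity trend or the Paneth covariate. Genes called (6) were 2 with median centring, with quantile normalization and without the smooth muscle arrays, 10 with the trend, 69 without the Paneth-low arrays and 231 with the Paneth covariate. The Paneth covariate also gave 1 called surrounding gene, 1 protein gene and 1 other small RNA. Members at an unadjusted p under 0.05 were 3 higher with a mean log2 of at least 6 and 8 lower with quantile normalization. They were 2 lower without the smooth muscle arrays, and 19 higher and 3 lower without the Paneth-low arrays, where the scaRNA median was -0.19. The shares of all genes in these settings are not given here, so the counts are not read against a background. Named members with an exact permutation p under 0.05 (10) were 5 with a mean log2 of at least 6 and 3 without the smooth muscle arrays. Most were named for a small p or non-overlap on these same arrays, so this count is no separate evidence. Signs turned for Atg16l1 (-0.0011, quantile normalization), Chd8 (0.0042) and Scarna8 (0.0083) without the Paneth-low arrays, Scarna8 (0.035) without knockout 2 and Snhg9 (0.0283) without the smooth muscle arrays. The causes were not tested.

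With any 1 array left out, called genes ran from 2 to 452 and called members from 0 to 6 (C/D box 0 to 3, H/ACA box 0 to 2, scaRNA 0 to 1), called surrounding genes from 0 to 15, protein genes from 0 to 7 and other small RNAs from 0 to 1. The highest counts of genes and members came without knockout 2. Members at an unadjusted p under 0.05 ran from 3 to 11 lower and 5 to 17 higher. The 17 higher members came without knockout 2, where 9.65% of all genes were higher. The 11 lower members came without control 10, where 5.05% of all genes were lower. Surrounding genes ran from 16 to 29 higher and protein genes from 14 to 27 higher. Class medians ran from -0.02 to 0.13 (C/D box), -0.06 to 0.04 (H/ACA box) and -0.57 to -0.23 (scaRNA). Medians ran from 0.20 to 0.40 for surrounding genes, 0.24 to 0.33 for protein genes, -0.11 to -0.08 for microRNA genes, -0.07 to -0.02 for U RNAs and -0.25 to -0.14 for other small RNAs. Named members with an exact permutation p under 0.05, a count that their choice by small p favours, ran from 5 to 10.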
